A study of Homo sapiens with 4 samples.

Results

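The interferon signalling genes STAT2, IRF1, IRF2, IRF3, IRF7, IRF9, JAK1 and TYK2 were followed across 4 expression arrays of A549, a cell line established from a human lung adenocarcinoma. These 8 genes, of 18255 named on the arrays, were chosen by symbol, and every probe annotated with 1 of these symbols alone was used, which gave 13 probes. STAT2, IRF1, IRF3, IRF9 and JAK1 had 2 probes each, and IRF2, IRF7 and TYK2 had 1. The 4 groups were cells transfected with a control siRNA (siCtrl), with an siRNA against PML (siPML), with an empty expression vector (vector) or with a construct that overexpresses WDR4 (WDR4), each profiled 48 h later on 1 array. The sources used here do not name the siRNA sequences, the promoter of the construct or any further treatment.

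In textbook outline, type I interferon binds a receptor whose chains carry the kinases TYK2 and JAK1. The kinases phosphorylate STAT proteins, and STAT2 then enters the nucleus with IRF9 in the complex ISGF3, which binds the interferon-stimulated response element (ISRE) of antiviral genes. IRF3 and IRF7 act one step earlier, since sensors of foreign nucleic acid activate them to switch on the interferon genes themselves. IRF1 is an activator whose own gene interferon-gamma induces through a gamma-activated site (GAS), and IRF2 competes with IRF1 for the elements it binds. Several of these genes, IRF7 and STAT2 among them, are known as interferon-induced genes, so the pathway can raise its own components.

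Each group was 1 array, so no difference was tested, no p-value was computed, and higher and lower refer to arrays and not to treatments. The spread between cultures is unknown. Differences are differences of log2(intensity + 1), with the deposited linear intensity. Between 10 and 600 units, each deposited value could be resolved into 2 underlying readings whose mean it is, for at least 99.9% of values on every array. How far the log2 values of paired readings stood apart between 300 and 600 units gave a technical standard error of a difference of 0.11 for siPML against siCtrl, 0.08 for WDR4 against vector and 0.10 for vector against siCtrl. It was assigned to all probes and leaves out every source of variation between cultures. It understates the error of dim values, since the standard error of a single log2 value between 30 and 100 units was 0.18 for siCtrl, 0.27 for siPML and 0.20 for both plasmid arrays, and between 0.05 and 0.08 from 300 to 600 units. IRF2, except on WDR4, and the siPML value of IRF7 lie in the dim range. The median probe intensity ranged from 106 to 134 over the 4 arrays. The brightest PML probe read 853 on siCtrl and 506 on siPML, and the brighter WDR4 probe read 1140 on vector and 4708 on WDR4, while the dimmer WDR4 probe read 1191 and 890. Of 6 measured A549 markers 5 were above the intensity filter described below, with KRT8 the exception at 42.4 to 71.3, and the 3 leukocyte markers stayed at or below 32.9. The endothelial markers PECAM1 and CDH5 were below the filter, with PECAM1 at 48.6 to 52.4 on the siRNA arrays and 109 and 124 on the plasmid arrays. Of the fibroblast collagens COL1A1 read 411 to 604 and COL3A1 at most 2.95. The part of other cell types in the results was not tested. In RNA of whole cultures, fewer cells expressing a gene and less RNA per cell cannot be told apart.

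STAT2 and IRF9, the partners in ISGF3, were both far higher on the 2 plasmid arrays than on the 2 siRNA arrays. The brighter STAT2 probe read 377 on siCtrl and 288 on siPML, and 2641 on vector and 3276 on WDR4. The dimmer STAT2 probe read 188, 172, 575 and 696 in the same order. Both STAT2 probes were lowest on siPML and highest on WDR4.

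The brighter IRF9 probe read 2555 on siCtrl and 1628 on siPML, and 8558 on vector and 6591 on WDR4. The dimmer IRF9 probe read 2540, 2011, 6996 and 5287. IRF9 was therefore highest on vector, where STAT2 was highest on WDR4, and both genes were lowest on siPML. Each step of the IRF9 order on either probe, and each step of STAT2 on its brighter probe, exceeded 2 technical standard errors. On the dimmer STAT2 probe the step from siCtrl to siPML, of 0.13, did not, and its readings of 207 and 170 on siCtrl overlapped those of 175 and 169 on siPML.

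IRF7, the inducible activator of interferon genes, spanned the widest range of the 8. Its probe read 156 on siCtrl and 85.5 on siPML, and 1996 on vector and 2669 on WDR4, so the highest array stood 30.9-fold above the lowest. On the siRNA arrays it was below 223, the intensity that corresponds to the filter on dim genes, which it passed through the plasmid arrays. The paired readings were 153 and 159 on siCtrl and 85.1 and 86.0 on siPML.

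IRF1 had the order of IRF9. Its brighter probe read 1047 on siCtrl and 902 on siPML, and 4715 on vector and 4190 on WDR4. The dimmer IRF1 probe read 345, 214, 1420 and 1067. The step between siCtrl and siPML was 0.21 on the brighter probe, within 2 technical standard errors, and 0.69 on the dimmer one, where readings of 325 and 366 on siCtrl lay above 232 and 195 on siPML.

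**Figure D1:**
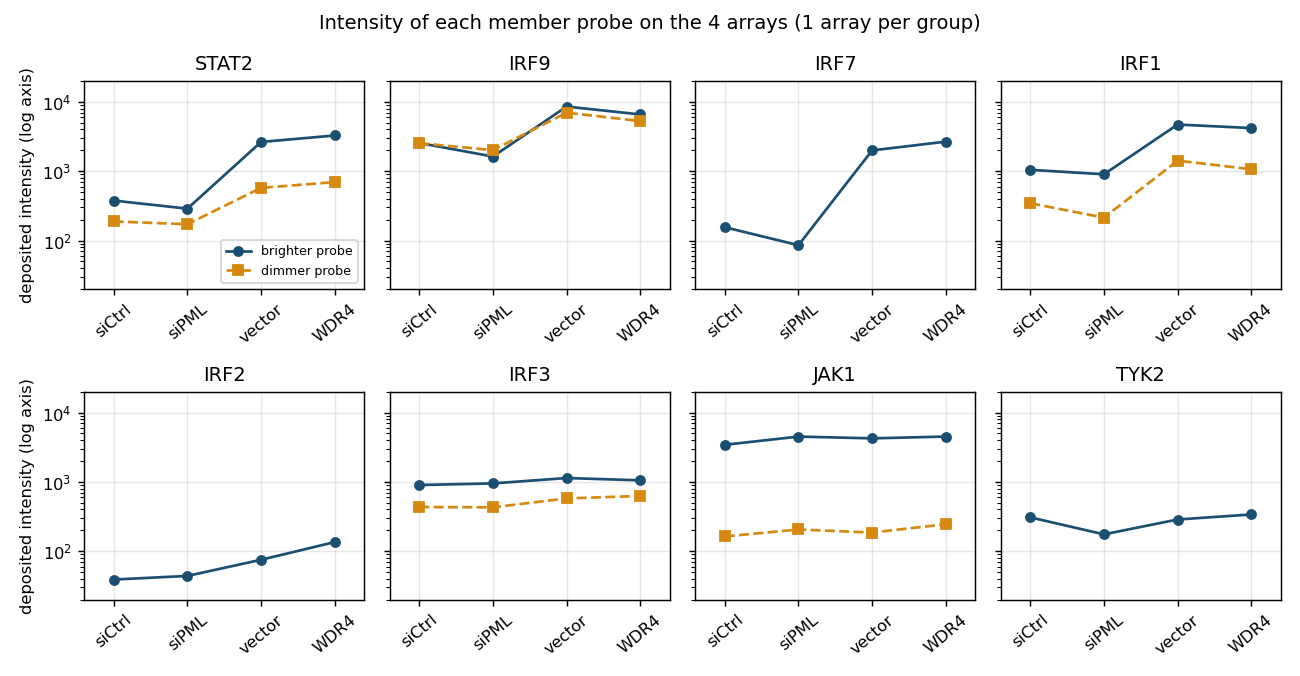
Deposited intensity (log axis) of each of the 13 probes on the 4 arrays, 1 panel per gene, with a line joining the values of 1 probe. STAT2, IRF9, IRF7 and IRF1 step up from the siRNA arrays to the plasmid arrays, IRF7 from 156 on siCtrl to 1996 on vector, while IRF3 and JAK1 stay nearly level and TYK2 dips on siPML to 175.

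Short sequences before the starts of the members were searched for known elements. RefSeq promoter sequences of build GRCh38.p14 were matched for 5 of the 8 members, and not for IRF2, IRF3 and IRF7. The 250 bases before the annotated start were searched on both strands, so elements elsewhere or with other letters would be missed. IRF1, IRF9 and STAT2 are printed because they are the members with a matched promoter that stood at least 2-fold higher on vector than on siCtrl. They lie at chr5:132490774-132491023 (minus strand), chr14:24161015-24161264 (plus strand) and chr12:56360108-56360357 (minus strand). Capitals mark matches to the GAS core TTCNNNGAA and to the kappaB core (GGGA, any 4 bases, CC), and no 2 of the capital stretches overlap.
IRF1: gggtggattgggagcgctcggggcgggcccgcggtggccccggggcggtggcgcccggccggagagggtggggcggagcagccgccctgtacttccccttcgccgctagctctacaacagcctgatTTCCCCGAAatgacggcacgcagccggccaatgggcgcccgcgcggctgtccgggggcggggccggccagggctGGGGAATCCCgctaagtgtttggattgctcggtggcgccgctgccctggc
IRF9: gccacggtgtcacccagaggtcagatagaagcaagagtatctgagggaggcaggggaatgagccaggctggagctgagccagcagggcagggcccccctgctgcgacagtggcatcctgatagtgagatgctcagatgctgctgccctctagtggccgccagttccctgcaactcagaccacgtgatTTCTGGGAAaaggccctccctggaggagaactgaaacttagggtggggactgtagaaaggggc
STAT2: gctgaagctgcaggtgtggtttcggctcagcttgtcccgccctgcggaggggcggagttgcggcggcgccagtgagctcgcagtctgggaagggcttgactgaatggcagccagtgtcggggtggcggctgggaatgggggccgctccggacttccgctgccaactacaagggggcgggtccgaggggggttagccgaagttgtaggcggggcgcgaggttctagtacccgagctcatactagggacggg
IRF1 held the GAS match TTCCCCGAA beginning 124 bases before its start and the kappaB match GGGGAATCCC, read on the opposite strand, beginning at 50 bases. IRF9 held the GAS match TTCTGGGAA at 63 bases. The printed STAT2 window held neither, and it held 3 matches to the GC box GGGCGG. No window of IRF1, IRF9, STAT2, TYK2 or of the 3 annotated starts of JAK1 held the ISRE core (GAAA, any 2 bases, GAAA), and those of JAK1 and TYK2 held no GAS core either. Over 35114 promoters of the table, 3.02% held the ISRE core, 6.57% the GAS core, 22.6% the kappaB core and 42.6% the GC box in the same window. A match is a run of letters and not a shown binding site.

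**Figure D2:**
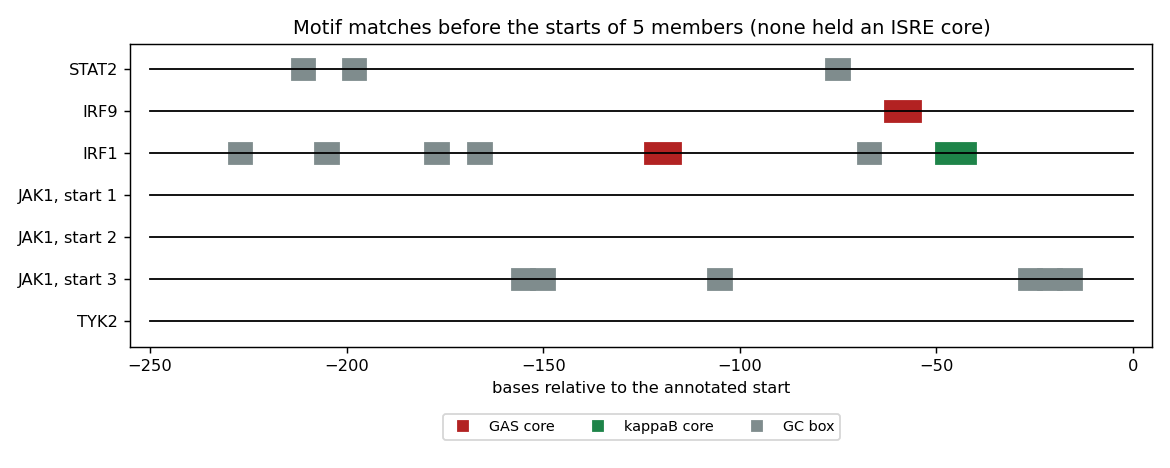
Positions of motif matches in the 250 bases before the annotated starts of STAT2, IRF9, IRF1, JAK1 (3 starts) and TYK2, with distance to the start on the x axis and boxes coloured by motif. GAS matches appear at 124 bases in IRF1 and 63 bases in IRF9, and GC boxes in STAT2, IRF1 and the third JAK1 start.

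IRF3, JAK1 and TYK2 differed by less than 2-fold between any 2 arrays, while IRF2 was dim and higher on the plasmid arrays. The IRF2 probe did not pass the intensity filter, at 39.0 on siCtrl and 44.0 on siPML, and 75.3 on vector and 135 on WDR4. Its readings were 138 and 133 on WDR4 against 84.8 and 65.7 on vector, and 44.4 and 43.5 on siPML against 38.9 and 39.1 on siCtrl. IRF2 was thus highest on WDR4 and lowest on the siRNA arrays.

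IRF3, which is present in most cells before any stimulus, was the flattest. Its brighter probe read 902 on siCtrl and 951 on siPML, and 1137 on vector and 1054 on WDR4, and when these were ranked by level no step between neighbours reached 2 technical standard errors. The span from siCtrl to vector, of 0.33, exceeded it. The dimmer IRF3 probe read 434, 430, 578 and 627, with a step of 0.41 between siCtrl and vector as its 1 step beyond that limit. In the annotation IRF3 overlaps BCL2L12 and JAK1 overlaps RAVER2, and whether the probes also read those transcripts was not tested.

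JAK1 was lowest on siCtrl on both probes. The brighter JAK1 probe read 3432 on siCtrl and 4507 on siPML, and 4250 on vector and 4511 on WDR4. The last 3 of these values did not differ from each other by 2 technical standard errors. The step from vector down to siCtrl, of 0.31, exceeded that limit. The dimmer JAK1 probe read 163, 206, 186 and 245. TYK2, the partner kinase on the type I receptor, read 308 on siCtrl and 175 on siPML, and 287 on vector and 339 on WDR4. TYK2 was lowest on siPML. Ranked by level, the steps from WDR4 to siCtrl and from siCtrl to vector were each within 2 technical standard errors, whereas WDR4 and vector themselves differed by 0.24, which was not.

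The comparison of siPML with siCtrl asks how the transcripts stood after the siRNA against PML, the scaffold of nuclear bodies. On the brightest probes IRF7, TYK2 and IRF9 were the lowest members, IRF1 and STAT2 were lower by less, and JAK1 was higher, whereas the dimmer IRF1 probe lay below both IRF9 probes. The differences were -0.86 for IRF7, -0.81 for TYK2 and -0.65 for IRF9, and the dimmer IRF9 probe gave -0.34. STAT2 differed by -0.39 and -0.13 on its 2 probes, and IRF1 by -0.21 and -0.69. JAK1 was higher by 0.39 and 0.33. IRF3 differed by 0.08 and -0.01, and IRF2 by 0.17, which turned to -0.08 with quantile normalization or with the trend along the level removed. The IRF3 value of 0.08 turned to -0.03 with centred arrays.

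None of the 8 members was at least 2-fold different on siPML, where 2.3% of the 9128 genes above the filter were at least 2-fold higher and 4.27% lower. The filter kept genes whose mean log2 intensity reached the median of all named genes. It kept 7 of the members, and IRF2 is counted without it. The median difference of the 8 was -0.30, against 0.01 over all kept genes. Among kept genes, 6.07% lay below IRF7, 7.03% below TYK2 and 11.1% below IRF9, so many other genes were lower still. On the siRNA arrays compared here IRF7 was below the intensity of the filter, which it passed through the plasmid arrays. The place of IRF7 among kept genes is therefore a description and no support. Of 8 member probes with recovered readings on both arrays, 4 lay lower and 2 higher without overlap. Over all probes so measured 20.8% lay lower and 49.5% higher, or 70.3% together, so separated readings were the usual case.

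In the comparison of WDR4 with vector the interferon-inducible members differed in sign, by small amounts. STAT2 and IRF7 were higher on WDR4 and IRF9 and IRF1 were lower, and both probes of STAT2, IRF9 and IRF1 went the same way. STAT2 differed by 0.31 and 0.28, IRF7 by 0.42, IRF9 by -0.38 and -0.40, and IRF1 by -0.17 and -0.41. On the brightest probes these signs were the same with quantile-normalized arrays, with centred arrays and with the trend along the level removed. IRF1 was then -0.09 with the trend removed, near 1 technical standard error. IRF2 had the highest value, 0.84 or 1.79-fold, from a dim probe, and it was 0.64 with quantile normalization and 0.52 with the trend along the level removed. TYK2 was higher by 0.24, JAK1 by 0.09 and 0.40, and IRF3 differed by -0.11 and 0.12 on its 2 probes.

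No member was at least 2-fold different on WDR4, as were 0.362% of kept genes on the higher and 0.285% on the lower side. The median of the 8 was 0.16, against -0.04 over all kept genes. Of kept genes 0.723% lay above IRF2, 7.8% above IRF7 and 13.3% above STAT2, while 11.5% lay below IRF9 and 31.9% below IRF1. IRF1 thus lay in the body of the kept genes. Among genes with at least 2 probes above the filter, the median disagreement between the 2 brightest was 0.21 here, and its 90th percentile 0.58. Kept genes are brighter than IRF2, and without the filter 2.21% of all named genes were at least 2-fold higher and the median of all was 0.11. IRF2, TYK2 and the dimmer JAK1 probe had recovered readings on both arrays, and all 3 were higher without overlap, as were 55.5% of all probes so measured.

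Of the 3 comparisons, the one between the 2 control arrays held the largest differences of IRF7, STAT2, IRF1 and IRF9. IRF7 read 12.8-fold higher on vector than on siCtrl (3.67), STAT2 6.99-fold (2.81), IRF1 4.50-fold (2.17) and IRF9 3.35-fold (1.74). The dimmer probes gave 1.60 for STAT2, 2.04 for IRF1 and 1.46 for IRF9. IRF2 was higher by 0.93, IRF3 by 0.33 and JAK1 by 0.31, and TYK2 differed by -0.10. Both arrays lack the siRNA against PML and the WDR4 construct, but the kind of transfection and the culture differ together between them and cannot be told apart.

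Of the 8 members 4 were at least 2-fold higher on vector than on siCtrl and 0 lower, where 9.43% of kept genes were higher and 3.14% lower. The median difference of the members was 1.34, against 0.10 over all kept genes. Of kept genes 0.34% lay above IRF7, 0.756% above STAT2, 1.52% above IRF1 and 2.44% above IRF9. IRF7 passed the filter through the plasmid arrays, so its place among kept genes is a description and no support. The split of all calls on this contrast, with 861 genes higher and 287 lower, turned to 519 and 602 when each array was centred on the median of named genes, which moved the median of all kept genes to -0.15. The 4 members stayed at least 2-fold higher under that centring, with IRF9 at 1.49 as the lowest.

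**Figure D3:**
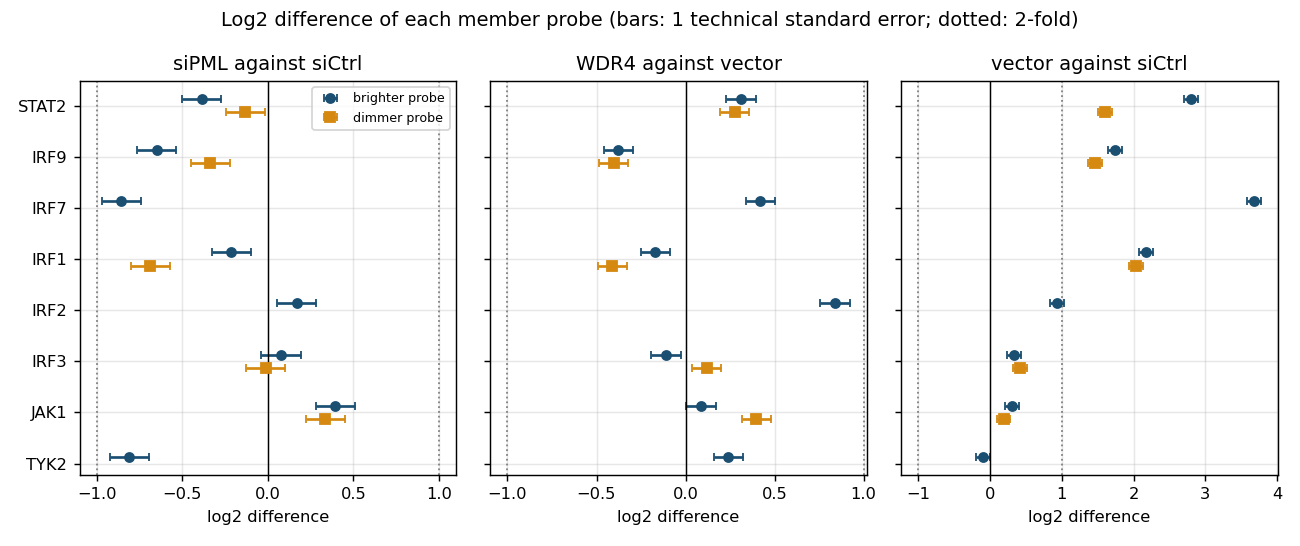
Log2 difference of each member probe in the 3 comparisons, with bars of 1 technical standard error (0.11, 0.08 and 0.10 from left to right, assigned to all probes) and dotted lines at 2-fold. On WDR4 against vector, STAT2 and IRF7 lie right of 0 and IRF9 and IRF1 left of it, and on vector against siCtrl, IRF7 (3.67), STAT2, IRF1 and IRF9 lie beyond the 2-fold line. The x axes differ between panels.

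Probes of the same gene gave the same sign in all 5 genes on vector against siCtrl and in 4 of 5 in each of the other comparisons, with IRF3 the exception in both. Their sizes agreed less for STAT2, whose 2 probes differed from each other by 1.20 on vector against siCtrl. Among all 1745 genes with at least 2 probes above the filter, the median disagreement between the 2 brightest was 0.22 and its 90th percentile 0.77. The size of the STAT2 difference is therefore uncertain. Its 2 probes gave 3.04-fold and 6.99-fold, both above 2-fold, and these values are no bounds, since each group was 1 array.

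**Figure D4:**
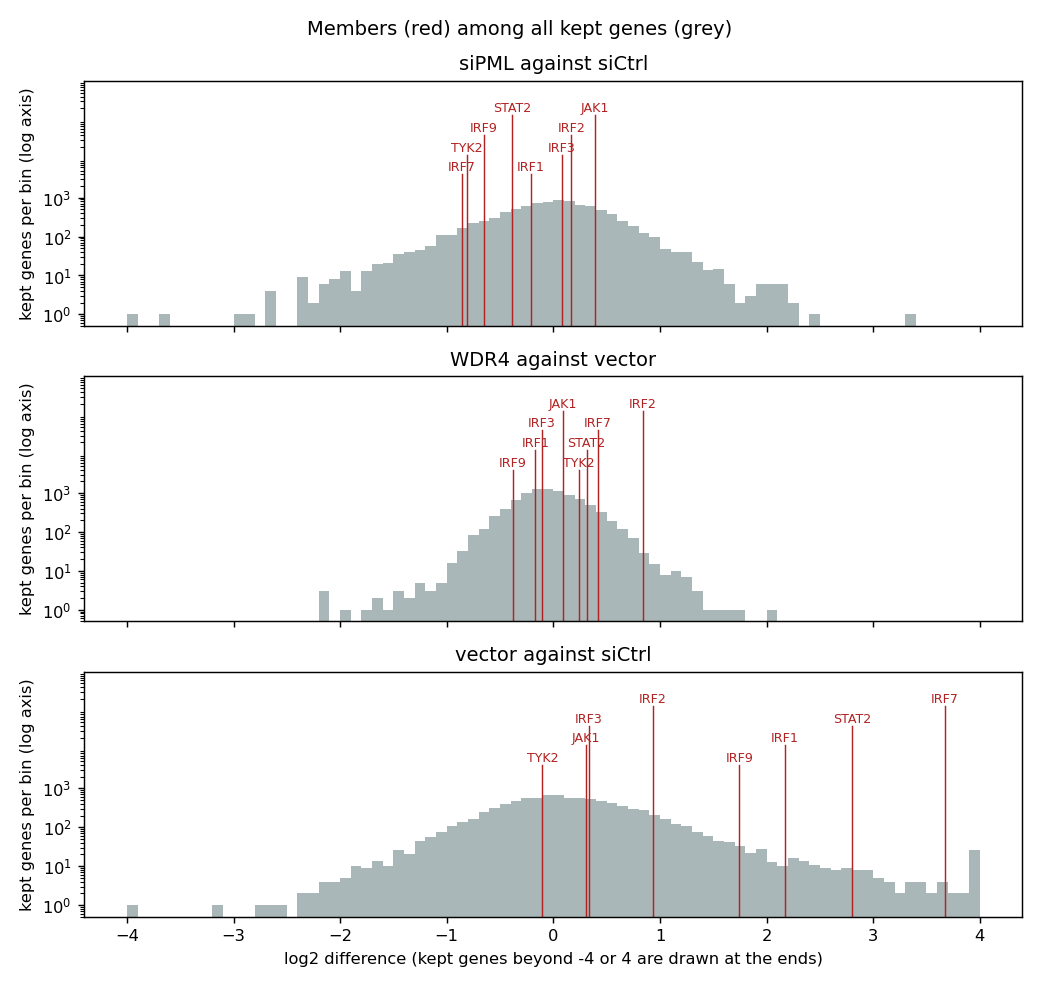
Number of kept genes (log axis) by log2 difference in bins of 0.1, for each comparison, with the brightest probe of each of the 8 members marked in red. The members lie within the body of the distribution on siPML against siCtrl, while on vector against siCtrl IRF7, STAT2, IRF1 and IRF9 lie in its upper tail, with 0.34% to 2.44% of kept genes above them.

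Genes around the 8 members in the pathway were described from lists chosen by function. Of 17 ISGF3 targets, antiviral genes with ISRE elements, 15 passed the filter. All 15 were at least 2-fold higher on vector than on siCtrl, beside 9.43% of kept genes, with a median of 4.25. XAF1 read 58.0 on siCtrl and 8098 on vector, and OAS2, an enzyme that makes the activator of RNase L, read 63.5 and 5772. Many of these genes passed the filter through the plasmid arrays, so this count is a description and no support. On siPML against siCtrl 10 of the 15 were at least 2-fold lower and 0 higher, beside 4.27% and 2.3% of kept genes, with a median of -1.39. MX1 read 4.07 on siPML against 229 on siCtrl, and OAS2 read 16.4 against 63.5. Values as dim as these carry a larger technical error. Not all of the 10 were so dim, since IFIT1 read 579 on siPML against 2962 on siCtrl. Many of the 15 passed the filter through the plasmid arrays, so this count too is a description. Between WDR4 and vector, all 15 were above 0 on WDR4 with a median of 0.24, against -0.04 over all kept genes. IFIT2, at 5051 against 2117, was the 1 gene at least 2-fold higher, beside 0.362% of kept genes.

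Targets of IRF1 and interferon-gamma had 7 of 12 genes above the filter. On vector against siCtrl 5 were at least 2-fold higher, beside 9.43% of kept genes, with a median of 2.12, among them the tryptophan-degrading enzyme IDO1, at 2517 against 78.1, and the immunoproteasome subunit PSMB9, at 18111 against 3349. IDO1 and CASP1 passed the filter through the plasmid arrays, so this count too is a description and no support. On siPML against siCtrl 2 were at least 2-fold lower, IDO1 (-1.10) and the cytokine IL15 (-1.06), beside 4.27% of kept genes. The median was -0.06. For WDR4 against vector none passed 2-fold, as did 0.646% of kept genes in either direction. The median was 0.30, against -0.04 over all kept genes, where IRF1 itself was lower on both probes.

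Of 6 receptor genes 5 passed the filter. On vector against siCtrl 3 of these 5 were at least 2-fold higher, beside 9.43% of kept genes. They were IFNGR1 and IFNGR2, the chains of the interferon-gamma receptor, and IL10RB, a chain of the interferon-lambda receptor, by 1.19, 1.29 and 1.03. IFNAR1 and IFNAR2, the type I receptor, read 881 and 809 on siCtrl, 746 and 676 on siPML, 1039 and 1231 on vector, and 1064 and 1531 on WDR4. IL10RB was at least 2-fold higher on siPML too, at 1239 against 574, beside 2.3% of kept genes. All 5 were above 0 on WDR4 against vector, with IFNGR2 highest at 0.69. Their median was 0.21, against -0.04 over all kept genes.

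None of 6 measured ligand genes passed the filter. IFNB1, interferon-beta, read 23.9 on siCtrl and 30.6 on siPML, and 53.0 on vector and 103 on WDR4. IFNL2, an interferon-lambda gene with the near-identical copy IFNL3 that can share its signal, read 9.01, 10.4, 186 and 394. Other ligands had other orders. IFNE, interferon-epsilon, read 111 on siCtrl and 209 on siPML, and 48.1 on vector and 44.5 on WDR4, IFNK was at most 4.49 with its highest value on siPML, and IFNL1 was at most 3.49 with its highest on vector. IFNG read 44.8, 71.5, 48.6 and 71.5. All 4 were below the filter.

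Of 11 genes that encode activators of IRF3 and IRF7, 8 passed the filter, and none of these was at least 2-fold different in any of the 3 comparisons. Of kept genes 6.57% were on siPML against siCtrl, 0.646% on WDR4 against vector and 12.6% on vector against siCtrl. The medians of the 8 were 0.15, -0.12 and 0.54 in the same order. TBK1, the kinase that phosphorylates IRF3, read 8649 on siCtrl and 9982 on siPML, and 11250 on vector and 10226 on WDR4. On siPML the adaptors of TBK1 named AZI2 and TANK differed by -0.72 and -0.66, and on WDR4 the adaptor MYD88 differed by 0.62 and TRAF6 by -0.62. Between vector and siCtrl, the kinase IKBKE differed by 0.86, TRAF6 by 0.82 and AZI2 by 0.81.

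Negative regulators of the pathway had 11 of 15 genes above the filter. On vector against siCtrl 3 were at least 2-fold higher and 0 lower, beside 9.43% and 3.14% of kept genes. USP18, an interferon-induced protease that blocks the receptor chain IFNAR2, read 1025 on siCtrl and 450 on siPML, and 7267 on vector and 8981 on WDR4. TRIM21, a ubiquitin ligase, was higher by 2.17, and RBCK1 by 1.31. USP18 was the 1 gene of the list at least 2-fold lower on siPML (-1.19), beside 4.27% of kept genes. Its order over the arrays was that of STAT2 and IRF7. The phosphatase PTPN11 differed by -0.88 on siPML against siCtrl and by 0.44 on WDR4 against vector. Of 3 binding proteins of IRF2, the 2 above the filter differed by less than 2-fold in every comparison, with IRF2BPL at 0.97 on vector against siCtrl.

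**Figure D5:**
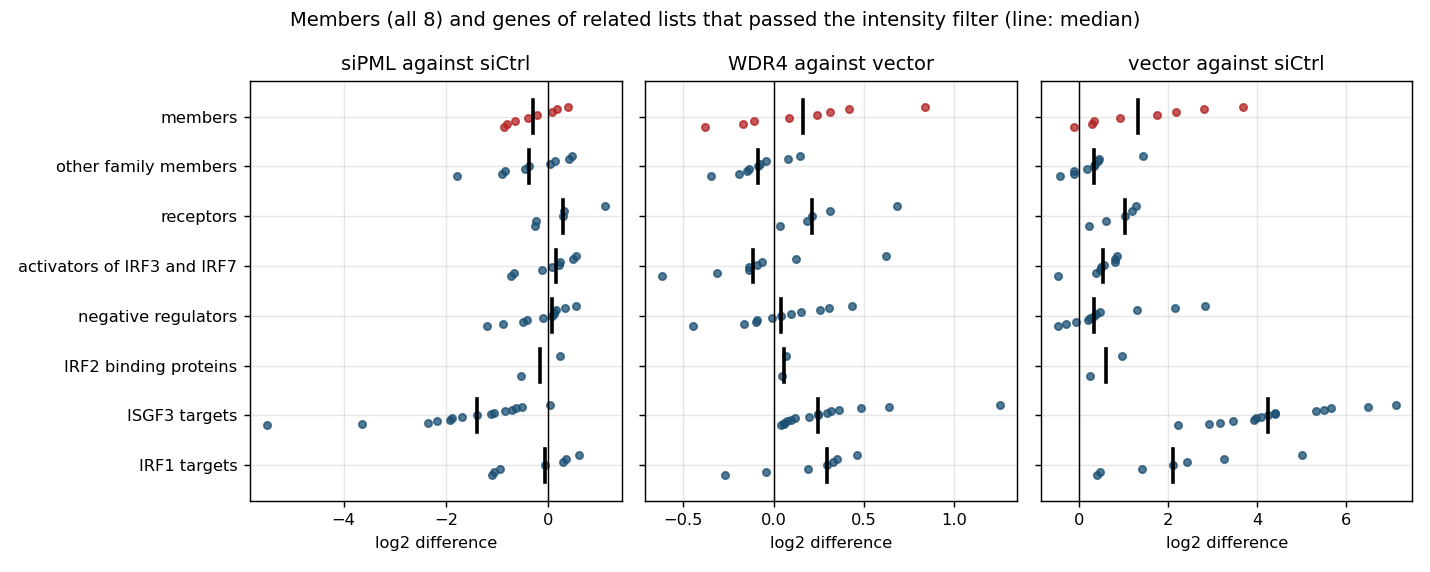
Log2 differences of the 8 members (red) and of genes above the intensity filter from 7 related lists (blue), with a black line at each median and x axes that differ between panels. The ISGF3 targets lie lowest on siPML against siCtrl (median -1.39) and highest on vector against siCtrl (4.25), and the members spread from -0.10 to 3.67 in the latter.

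Promoter letters were set against the differences of kept genes with a matched promoter. Genes were kept by their mean over the 4 arrays, so a gene high on the plasmid arrays alone could pass. The shares below are therefore a description and no support. Of 251 kept genes with an ISRE core in the 250 bases, 60 (23.9%) were at least 2-fold higher on vector than on siCtrl, against 9.22% of all 7589 kept genes with a promoter, and 5 were lower, against 3.18%. On siPML against siCtrl 20 of the 251 (7.97%) were at least 2-fold lower, against 4.3%, and 5 were higher, against 2.15%. For the GAS core, which IRF1 and IRF9 hold, 61 of 567 genes (10.8%) were higher on vector than on siCtrl and 29 (5.11%) lower on siPML than on siCtrl, both close to the share of all genes. Between WDR4 and vector, 1 of 251 ISRE genes and 5 of 567 GAS genes were at least 2-fold higher, against 0.343%.

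The genes most like each member were found by the root mean square difference of log2 values over the 4 arrays, after each gene was centred on its own mean. The 3 nearest of IRF7 were PARP10 (0.11), EPSTI1 (0.18) and IFITM3 (0.19), and those of STAT2 were PLEKHA4 (0.06), SBSN (0.12) and CSAG1 (0.13). Those of IRF1 were RASSF10 (0.06), TRIM5 (0.10) and TPRA1 (0.11), and those of IRF9 were PHLDB2 (0.07), KISS1 (0.07) and GTPBP2 (0.10). The flat members had many close matches, with NCOA6, SRPK1 and USP8 at 0.01 to 0.02 from IRF3 and COA5, MRPL32 and NEK9 at 0.01 to 0.02 from JAK1. TYK2 was nearest to ARPC5L (0.02), PPM1H (0.03) and UBE2G1 (0.04), which were likewise lowest on siPML. IRF2 was left out because it did not pass the filter.

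No member was among the 3 nearest genes of another. The closest pair of the inducible members was IRF1 and IRF9, at 0.23, with 37 kept genes nearer to IRF1 than IRF9 was. STAT2 lay 0.51 from IRF1, 0.60 from IRF7 and 0.69 from IRF9. With 4 arrays and 2 classes of transfection, likeness of this kind rests mostly on the step between the siRNA and plasmid arrays.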

How the data were processed

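Total RNA was extracted, amplified and labelled with Cy5, per the labels' protocols. For 31741 probes, the authors deposited a linear intensity on each array. Their scanner, background correction and normalization are not stated in the labels or files used here, and that the intensities are linear was read from their range, from just below 0 to the limit of a 16-bit scanner. The depth of a count has no equivalent here, and the number of arrays limits the precision.

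Probes were named through the platform annotation. Of them 24658 had 1 symbol, 1002 several and 6081 none, and only the first were used. No probe with several symbols included a member. Older symbols were updated through RefSeq for 2177 probes, and 77 stayed unmatched. Log2(intensity + 1) was computed with negative values taken as 0. The brightest probe over the 4 arrays stood for each of 18255 genes, and 9128 genes with a mean log2 value of at least 7.81, an intensity of 223, were kept. Each deposited value between 10 and 600 was resolved into 2 whole-number readings times constants of the array, and after a shift of 0.0137 at most 3.78% of values could be so resolved. No label says whether the readings are spots, scans or arrays, and each group counted as 1 replicate.

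Members, lists and rules were chosen with earlier results of these data known. Named genes were the members, the 3 kept genes nearest to each, up to 3 genes per list with the largest differences, and PML and WDR4. IFNB1, IFNL2 and the other ligands, TBK1, IFNAR1, IFNAR2, KRT8, PECAM1, CDH5, COL1A1 and COL3A1 were picked with their values in view. The settings varied were quantile normalization, median centring, removal of a running median over 501 genes, no filter or a filter at the upper quartile, the mean over probes, 16 added before log2, a 1.5-fold threshold and the other control array. The calls at 2-fold and the recovery of the paired readings were tested on simulated data, and the other steps were not. Python 3.11.15, numpy 2.4.6, pandas 2.3.3 and matplotlib 3.10.9 were used.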

Additional observations from a re-analysis of the deposited data

How the results depend on the processing

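Every alternative that kept the own control left the sign of each difference of STAT2, IRF1, IRF7, IRF9, JAK1 and TYK2 as reported, while IRF3 ranged from -0.03 to 0.10 on siPML against siCtrl and from -0.19 to 0.004 on WDR4 against vector, and IRF2 from -0.08 to 0.17 on siPML against siCtrl. The 4 members at least 2-fold higher on vector than on siCtrl stayed 4 under all alternatives except a 1.5-fold threshold, which gave 5, and the filter at the upper quartile, which left 3 members and gave 2. Of kept genes 22.3% were at least 1.5-fold higher, and with the upper quartile filter 7.1% were at least 2-fold higher. The median of the members in that comparison was 1.34 as reported, 1.23 with quantile normalization, 1.09 with centring, 1.74 with the upper quartile filter and 1.23 with 16 added. On siPML against siCtrl the number at least 2-fold lower was 0 as reported and 1 with quantile normalization (IRF7 at -1.02), beside 3.83% of kept genes. It was 3 at 1.5-fold, beside 12.9% of kept genes. Against the vector array it was 4, beside 12.6% of kept genes, and the median of the members was -1.57. On WDR4 against vector the median turned from 0.16 to -0.17 with the upper quartile filter, which left IRF1, IRF9 and JAK1. The number at least 1.5-fold higher was 1, beside 3.09% of kept genes. Against siCtrl 5 members were at least 2-fold higher on WDR4, beside 8.13% of kept genes, with a median of 1.57.

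Counts over all genes moved more. On siPML against siCtrl the 210 higher and 390 lower genes became 734 and 578 without the filter, 68 and 198 with the stricter one, 162 and 499 with centring, and 922 and 1174 at 1.5-fold. On WDR4 against vector 33 and 26 became 404 and 81, 11 and 14, 27 and 38, and 282 and 305 under the same settings. On vector against siCtrl 861 and 287 became 1694 and 536, 324 and 165, 519 and 602, and 2039 and 969, and were 586 and 413 with quantile normalization and 648 and 392 with the trend removed. Quantile normalization and centring moved the median of all kept genes in that comparison from 0.10 to -0.03 and -0.15. The cause of these shifts was not tested. No paired analysis was possible because each group has 1 array. IRF2 and the siRNA arrays for IRF7 lie at low intensity, where 16 added before log2 gave 0.73 for IRF2 and 3.55 for IRF7 on vector against siCtrl.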

Other observations

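Other genes of the STAT, IRF and JAK families were measured beside the 8 members, and 9 of 10 passed the intensity filter. On siPML against siCtrl STAT3, the mediator of interleukin-6 signalling, was the 1 gene of these 9 at least 2-fold lower, at 2088 against 7184 (-1.78). Of all kept genes 4.27% were at least 2-fold lower. STAT4 differed by -0.91. STAT5A, which acts downstream of cytokine and growth factor receptors, was the 1 gene at least 2-fold higher on vector than on siCtrl, at 384 against 141 (1.44), beside 9.43% of all kept genes. Its siRNA arrays were below the filter, which it passed through the plasmid arrays, so its place in the count is a description. On WDR4 against vector 2 were above 0 and 7 below, from -0.34 for STAT4 to 0.14. Their median was -0.08, against -0.04 over all kept genes.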
